A study of Rattus norvegicus with 4 samples.

Results

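Cells of a sheet are held together by adherens junctions, in which cadherins and nectins of neighbouring cells bind each other and are tied to actin through catenins and afadin, and sealed by tight junctions, in which claudins and occludin span the membrane and bind scaffold proteins such as ZO-1 and cingulin. Polarity proteins such as Par-3 help to place these junctions at the apical side. In stratified epithelia E-cadherin is present in most living layers, while the claudin-based seal forms in the upper layers. Here 8 such genes were followed: Cdh1 (E-cadherin), Nectin4 (nectin-4), Cldn1 and Cldn4 (claudins), Ocln (occludin), Tjp1 (ZO-1), Cgn (cingulin) and Pard3 (Par-3). They were taken by gene symbol, which gave 18 probe sets of the 31099 on the array, and 15 of the 18 reached log2 6 on 1 array or more, the filter used throughout. A probe set is a group of short oligonucleotides that together measure 1 transcript or a part of it, and all 18 are accounted for below.

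The cells were ROE2, an immortalized oral epithelial line made from tongue tissue of a rat fetus (18 days) of the Wistar strain. The transgene, tsSV40 large T-antigen [pSVtsA58ori(-)-2], encodes a T antigen that is sensitive to temperature, so all 4 groups carry it and come from the same line. They were grown on collagen I at 33 °C for 24 h with 2% serum, ITES supplement and 10 ng/ml EGF and then moved to 37 °C, where T antigen loses activity. RNA was taken after 0 days (called the control in the labels), 3, 6 and 9 days and measured on 1 Affymetrix rat expression array per day, in a series about genes of epithelial differentiation. With 1 array per day there are no replicates, so differences have neither a replicate check nor a test, an effect of the array cannot be told apart from that of its day, and "higher" and "lower" describe these 4 arrays. Only day 0 was taken before any days at 37 °C, and no array comes from a longer time at 33 °C. An effect of temperature thus cannot be told apart from that of time in culture. The values are log2 values normalized by the authors with RMA, and a probe set was counted as called at a difference of at least 1 in log2, which is 2-fold. In such bulk RNA a change in the share of cells of a type and a change in RNA per cell cannot be told apart.

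Most stratified epithelial markers were bright on the arrays. Of 10 stratified epithelial marker genes with a probe set, 9 reached a log2 value of 6, and the basal keratin genes Krt5 and Krt14 read 12.92 to 13.44 and 14.04 to 14.15. Of 8 simple epithelial marker genes 3 reached log2 6, and they differed in direction. On day 9 Krt20 differed from day 0 by 2.28, Krt8 by -1.15 and Epcam by -0.12. For fibroblasts 0 of 11 markers reached log2 6, for endothelium 0 of 9, for muscle 0 of 7 and for melanocytes and neural crest 0 of 6. Among immune markers 1 of 9 did. That gene, the macrophage marker Cd68, read 5.32, 6.54, 6.27 and 6.18 on days 0, 3, 6 and 9, so it too was higher on the later days, while 6, 7, 6 and 7 of the 9 did not exceed the brightest bacterial control on these days. The summed linear level of the immune list was 151, 192, 182 and 180, and its part in the junction gene values was not tested. The summed linear level of the fibroblast list was 127, 126, 135 and 130 on days 0, 3, 6 and 9, and that of the stratified list 56690, 65978, 86635 and 90014. The suprabasal keratin gene Krt13, whose product replaces basal keratins in oral mucosa, differed from day 0 by 2.55, 3.87 and 4.24 on days 3, 6 and 9, and Vim, the gene of the mesenchymal filament protein vimentin, by -2.05, -4.07 and -3.63.

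Most of the junction genes read higher on days 3, 6 and 9 than on day 0, on days 3 and 6 most of all Nectin4, Cgn, Cldn1 and Pard3. The highest reading was usually that of day 6. Averaged over their probe sets that passed the filter, Cldn1 and Pard3 were 0.81 and 0.92 higher in log2 on day 9 than on day 0. Tjp1 and Cldn4, with 1 such probe set each, were 0.84 and 0.80 higher. On day 3, 6 of the 15 probe sets were at least 2-fold higher than on day 0, where 4.15% of all 11504 probe sets that passed the same filter were, on day 6 9 of 15 against 7.32% of all, and on day 9 6 of 15 against 6.87% of all. On each of these days the called probe sets belonged to the same 4 genes, Nectin4, Cldn1, Cgn and Pard3. Nectin4 1396584_at, called on all 3 days, read 5.89 on day 0 and so passed the filter only through the later days. With values under log2 6 set to 6, 20 of the 45 member values on days 3, 6 and 9 were at least 2-fold higher, against 21 as deposited. None was at least 2-fold lower on any day, with 0 of 15 on days 3, 6 and 9 where 2.26%, 7.43% and 5.92% of all probe sets were. The median difference of the 15 from day 0 was 0.94 on day 3, 1.15 on day 6 and 0.84 on day 9, beside -0.04, -0.11 and -0.10 over all probe sets. Earlier results of the same arrays were known when the 8 genes were chosen, so these shares describe the genes and are not independent support for a direction.

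**Figure D1:**
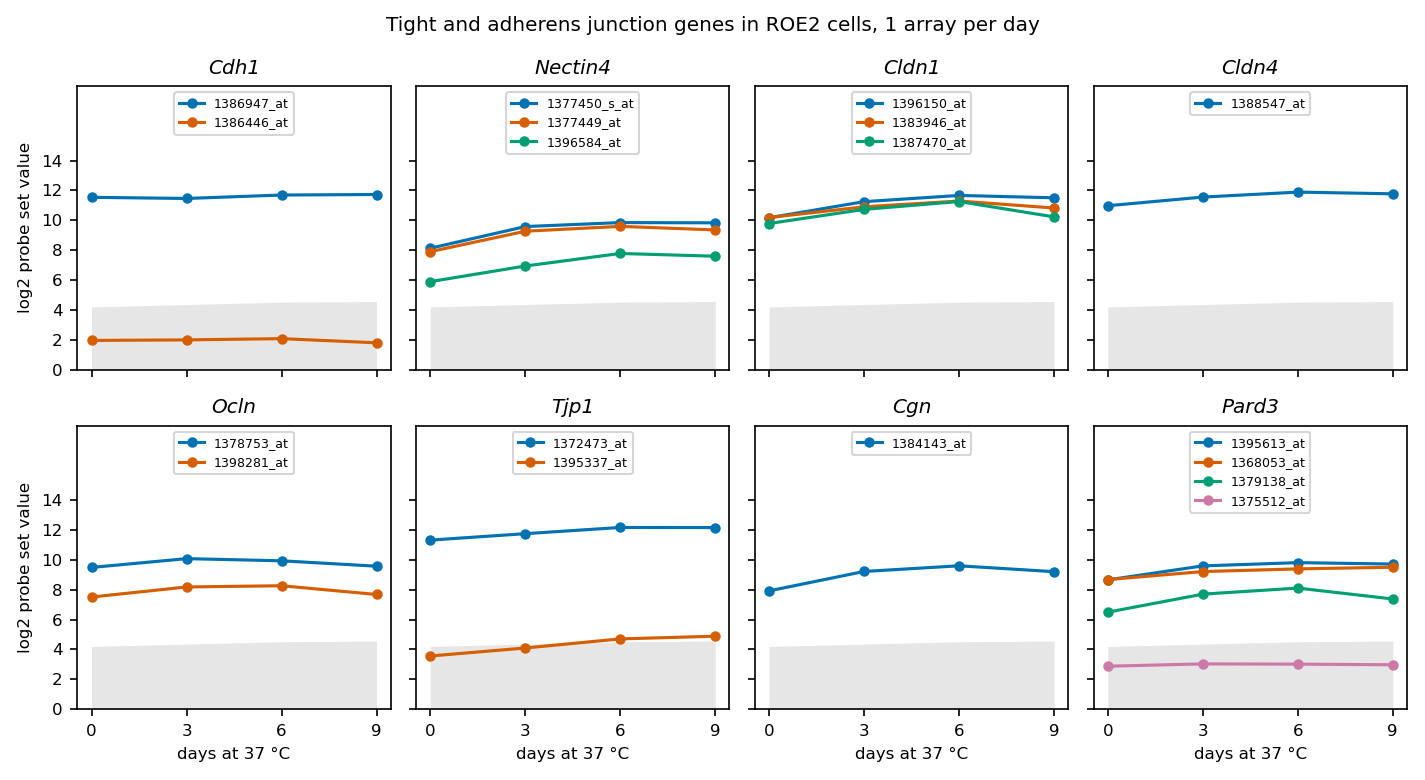
Log2 value of each probe set of the 8 junction genes (y axis) on days 0, 3, 6 and 9 at 37 °C (x axis); each line is 1 probe set, each point 1 array, and the grey area lies below the brightest of 27 bacterial control probe sets. Nectin4, Cldn1, Cgn and Pard3 are highest on day 6 in most probe sets, Cdh1 1386947_at stays between 11.46 and 11.73, and Cdh1 1386446_at and Pard3 1375512_at lie within the grey area on all 4 arrays.

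Among the adhesion receptors of the adherens junction, Nectin4 was among the genes with the largest differences and Cdh1 among those with the smallest. Nectin4, which encodes an immunoglobulin-like receptor that binds nectins on the neighbouring cell, has 3 probe sets. The brightest, 1377450_s_at, read 8.13, 9.58, 9.85 and 9.83 on days 0, 3, 6 and 9. Probe set 1377449_at read 7.90, 9.27, 9.59 and 9.36. The dimmest, 1396584_at, read 5.89, 6.94, 7.78 and 7.59. All 3 were lowest on day 0 and highest on day 6, and the readings of days 3, 6 and 9 all lay above that of day 0. Against day 0 the 3 probe sets were 2.07-fold to 2.73-fold higher on day 3, 3.24-fold to 3.70-fold on day 6 and 2.74-fold to 3.26-fold on day 9. Of all probe sets, 2.03% differed from day 0 by as much or more on day 9 as the brightest 1 of Nectin4. The brightest carries the mark "_s", which means that its oligonucleotides may match more than 1 transcript, and the other 2 lack that mark. After centring the arrays on the spike-ins, control transcripts added in the same amount to each, 1377449_at was 0.82 above day 0 on day 9 and 1396584_at 0.91 on day 3, short of 2-fold, and the other Nectin4 values on days 3, 6 and 9 stayed past it.

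Cdh1 encodes E-cadherin, the main calcium-dependent adhesion receptor of epithelial cells. Its probe set 1386947_at read 11.54, 11.46, 11.69 and 11.73 on days 0, 3, 6 and 9. The 4 arrays lay within 0.27 of each other, and the differences from day 0 were -0.08, 0.15 and 0.19 on days 3, 6 and 9. They were below 0 on all 3 days, at -0.22, -0.23 and -0.45, under spike-in centring. The second Cdh1 probe set, 1386446_at, read 1.95, 1.99, 2.07 and 1.79, below the brightest of 27 probe sets for bacterial transcripts on every array (4.19 to 4.56), and so gives no fold. Of all probe sets, 31.0% differed upward from day 0 by as much as Cdh1 on day 9.

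Claudins are the membrane proteins that set how tight and how ion-selective the seal is. Cldn1, which encodes the claudin that the epidermal barrier depends on in mice, has 3 probe sets that ran together up to day 6 and then parted. Probe set 1396150_at read 10.17, 11.25, 11.67 and 11.51 on days 0, 3, 6 and 9. Probe set 1383946_at read 10.18, 10.90, 11.29 and 10.82. Probe set 1387470_at read 9.79, 10.73, 11.26 and 10.23. Each was lowest on day 0 and highest on day 6, when they stood 2.82-fold, 2.16-fold and 2.78-fold above day 0. By day 9 they stood 2.53-fold, 1.56-fold and 1.36-fold above it, so only the first was called.

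Between day 9 and day 6 the 3 Cldn1 probe sets differed by -0.16, -0.47 and -1.03. The last was the only one of the 15 that was at least 2-fold apart between these days, where 0.904% of all probe sets were at least 2-fold lower and 0.217% higher. The gap between the highest and lowest Cldn1 difference from day 0 was 0.36 on day 3, 0.39 on day 6 and 0.89 on day 9. Over all 2091 genes with several probe sets above the filter the median gap was 0.21, 0.46 and 0.44 on these days. The 90th percentile of their gaps was 0.65, 1.13 and 1.10, above the Cldn1 gap on each day. These genes differ in their number of probe sets, and a gap can grow with that number. The size of the Cldn1 difference on day 9 thus depended on the probe set. Under spike-in centring the 3 day 9 differences were 0.70, 0.00 and -0.19.

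Cldn4, the gene of a claudin found in many epithelia and in the upper layers of stratified ones, has 1 probe set, which read 10.98, 11.56, 11.89 and 11.78 on days 0, 3, 6 and 9. It was lowest on day 0 and highest on day 6. Relative to day 0 it was higher by 1.49-fold on day 3, 1.88-fold on day 6 and 1.74-fold on day 9, short of 2-fold each time. Under spike-in centring its day 9 difference was 0.16 on the log2 scale. On day 6, 8.79% of all probe sets differed from day 0 by as much or more.

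Ocln encodes occludin, a membrane protein of tight junction strands. Its probe set 1378753_at read 9.49, 10.08, 9.94 and 9.58 on days 0, 3, 6 and 9, and 1398281_at read 7.51, 8.18, 8.26 and 7.68. Both were highest on days 3 and 6 and close to day 0 again on day 9. Their log2 differences from day 0 were 0.59 and 0.67 on day 3, 0.44 and 0.76 on day 6, and 0.08 and 0.17 on day 9. Day 9 lay below day 3 by nearly the same amount in both, at -0.51 and -0.50. Under spike-in centring the day 9 differences from day 0 were -0.55 and -0.46.

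Behind the membrane, the scaffold gene Tjp1 encodes ZO-1, which binds claudins and occludin and ties them to actin. Its probe set 1372473_at read 11.32, 11.75, 12.17 and 12.16 on days 0, 3, 6 and 9. Day 0 was the lowest and days 6 and 9 were nearly equal, at 1.80-fold and 1.79-fold above day 0, after 1.35-fold on day 3. Under spike-in centring the day 9 difference of this probe set was 0.21 on the log2 scale. The second Tjp1 probe set, 1395337_at, read 3.56, 4.09, 4.70 and 4.88. It exceeded the brightest bacterial control on days 6 and 9 only, and was at least 1.42-fold and at least 1.61-fold higher on these days than on day 0. "At least" sets the bright array against the brightest bacterial control on the dim array.

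Cgn encodes cingulin, a rod-shaped protein of the cytoplasmic side of the tight junction that binds ZO-1 and actin. Its only probe set read 7.92, 9.22, 9.60 and 9.21 on days 0, 3, 6 and 9. Day 0 was the lowest, day 6 the highest, and days 3 and 9 were level with each other. Cgn was 2.46-fold higher than on day 0 on day 3, 3.21-fold on day 6 and 2.44-fold on day 9. Under spike-in centring its day 9 difference was 0.65 on the log2 scale, short of 2-fold. On days 3, 6 and 9 2.31%, 2.21% and 4.16% of all probe sets differed from day 0 by as much or more.

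Pard3 encodes Par-3, the polarity scaffold that recruits Par-6 and atypical protein kinase C to forming junctions, and has 4 probe sets. The brightest, 1395613_at, read 8.66, 9.59, 9.81 and 9.72 on days 0, 3, 6 and 9. Probe set 1368053_at read 8.68, 9.22, 9.39 and 9.51, and 1379138_at read 6.49, 7.70, 8.11 and 7.38. All 3 were lowest on day 0, but 1368053_at was highest on day 9 and the other 2 on day 6. By day 9 they stood 2.09-fold, 1.78-fold and 1.84-fold above day 0, with a gap of 0.23 on the log2 scale between the highest and the lowest. On day 6 the 3 were further apart, at 2.23-fold, 1.64-fold and 3.06-fold. Under spike-in centring 1395613_at differed from day 0 by 0.77 on day 6 and 0.43 on day 9, short of 2-fold on both days. The fourth, 1375512_at, read 2.87 to 3.03 and stayed below the brightest bacterial control on every array.

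**Figure D2:**
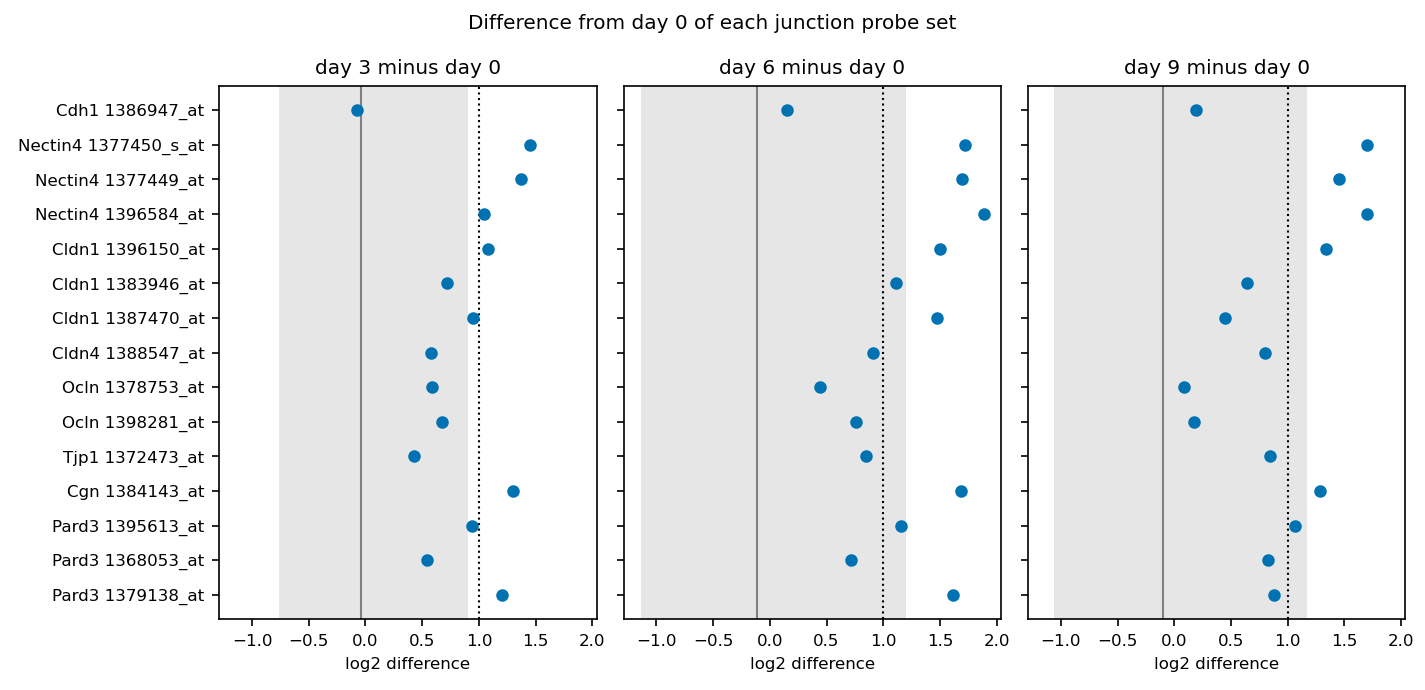
Log2 difference from day 0 (x axis) of the 15 junction probe sets that passed the filter (rows), on days 3, 6 and 9; grey bands hold the 5th to 95th percentile of all 11504 probe sets, the grey line is their median and the dotted line marks 2-fold. All 3 Nectin4 probe sets and Cgn lie right of the band on each day, Cdh1 lies near the median, and the 3 Cldn1 probe sets are spread from 0.44 to 1.34 on day 9.

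In timing, the median difference from day 0 was 0.94 on day 3 and 1.15 on day 6. Between day 6 and day 3, 0 of 15 probe sets differed by 2-fold in either direction, where 2.37% of all were higher and 1.45% lower. On day 6, 14 of the 15 read higher, and the median difference of the 15 was 0.33 beside -0.09 over all probe sets. With that median below 0, more of all probe sets read lower than higher on day 6. Between day 9 and day 6, 13 of 15 read lower on day 9, with a median difference of the 15 of -0.18 beside 0.04 over all probe sets. The smallest of these 13 differences was -0.0048, and 43.9% of all probe sets were as low or lower. Day 6 held the highest reading of 12 of the 15, day 9 of 2 (Cdh1 1386947_at and Pard3 1368053_at) and day 3 of 1 (Ocln 1378753_at). Of all probe sets 16.5% were highest on day 6. Probe sets of the same gene are not separate genes. By the brightest probe set, Cdh1 was highest on day 9, Ocln on day 3 and the other members on day 6, where 12.5% of all genes were.

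The day 6 array stood apart in 1 control. The difference between the 3' and 5' control probe sets of beta-actin, which grows when labelled RNA is short, was 2.25, 2.44, 1.22 and 2.35 on days 0, 3, 6 and 9, and that of GAPDH 0.10, 0.04, -0.02 and 0.18. That of hexokinase was 1.41, 1.48, 1.45 and 1.75, so GAPDH and hexokinase were highest on day 9. The labels give RNA integrity numbers between 9.5 and 10, with no value per sample. The part of these controls in the readings of days 6 and 9, and in the parting of the Cldn1 probe sets on day 9, was not tested. Since RMA makes arrays alike, values of the other days may depend on the day 6 array too. Applying the filter without the day 6 array left the counts of member probe sets at 6, 9 and 6, which says nothing about that array. All 15 reach log2 6 on another day, so the filter could not drop any, and the values compared were the same.

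The patterns of the members can be compared by centring the 4 values of each gene's brightest probe set on their mean and taking the root mean square distance, as a description over 4 arrays that all genes share. Cldn4 and Tjp1 lay nearest, at 0.07, followed by Cldn1 and Cgn at 0.12, Cldn1 and Pard3 at 0.13, and Cldn4 and Pard3 at 0.13. Cdh1 and Nectin4 were the farthest apart, at 0.66. Among 8793 other genes, those nearest to Nectin4 were Elf3 at 0.063 and Pof1b at 0.065, those nearest to Cldn1 were Epn3 at 0.018 and Cstf2 at 0.022, and those nearest to Cgn were Hsdl2 at 0.045 and Ly6g6c at 0.063. For Pard3 they were Ppfia3 at 0.022 and Dusp22 at 0.031, for Cldn4 Mreg at 0.021 and Hace1 at 0.023, and for Tjp1 Tusc2 at 0.019 and Perp at 0.022. For Ocln they were Tmbim6 at 0.010 and Ero1b at 0.020, and for Cdh1 Qprt at 0.0084 and Cdc26 at 0.0098. Flat or small patterns find close neighbours easily, so distances should be read within a gene.

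The sequence just before the annotated start was read for the 6 members in the RefSeq promoter table (build GRCr8), which were Nectin4, Cldn1, Cgn, Pard3, Tjp1 and Ocln. It is shown for the 3 genes whose brightest probe set was 2-fold higher on days 3, 6 and 9 and for Ocln, which was near its day 0 level on day 9. Each run is the 250 bases before the start, 5′ to 3′ on the gene's strand. Capitals mark CACCTG or its reverse complement CAGGTG, the E-box letters bound by the Snail and Zeb repressors of junction genes, and GGGCGG or its reverse complement CCGCCC, the GC box. Nectin4 lies at chr13:86335378-86335627 on the + strand, Cldn1 at chr11:87926126-87926375 on the + strand, Cgn at chr2:185023636-185023885 on the - strand and Ocln at chr2:33441199-33441448 on the - strand.
Nectin4: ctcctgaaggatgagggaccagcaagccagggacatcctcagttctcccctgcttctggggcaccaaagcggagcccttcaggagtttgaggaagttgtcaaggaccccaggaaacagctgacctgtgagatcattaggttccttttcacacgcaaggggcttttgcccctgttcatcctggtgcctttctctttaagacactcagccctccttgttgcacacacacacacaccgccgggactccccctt
Cldn1: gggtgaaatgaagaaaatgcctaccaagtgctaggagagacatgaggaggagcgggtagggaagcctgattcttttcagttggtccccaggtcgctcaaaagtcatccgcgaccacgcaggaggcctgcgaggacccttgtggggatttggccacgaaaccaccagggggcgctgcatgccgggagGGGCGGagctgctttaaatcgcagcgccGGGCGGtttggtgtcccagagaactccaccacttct
Cgn: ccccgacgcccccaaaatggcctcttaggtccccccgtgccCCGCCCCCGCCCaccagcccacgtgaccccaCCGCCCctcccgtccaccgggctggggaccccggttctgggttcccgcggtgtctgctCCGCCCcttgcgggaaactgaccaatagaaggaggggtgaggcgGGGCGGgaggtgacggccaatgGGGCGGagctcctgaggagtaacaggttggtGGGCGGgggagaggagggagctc
Ocln: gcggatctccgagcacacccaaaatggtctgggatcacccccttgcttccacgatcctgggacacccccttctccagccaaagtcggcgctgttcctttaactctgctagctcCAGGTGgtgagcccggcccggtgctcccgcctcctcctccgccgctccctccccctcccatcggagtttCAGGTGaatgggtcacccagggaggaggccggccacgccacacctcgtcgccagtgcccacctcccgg

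The E-box letters were found in 1 of the 6 windows, that of Ocln, where CAGGTG begins at -137 and -68 from the start, and 15.9% of all 33469 windows of this length hold a match. The GC box, added to the search after the sequences were seen, occurs 7 times in the Cgn window, 2 times in that of Cldn1 and 1 time in that of Pard3, and 30.5% of all windows hold it. The letters ACCGGT, the core of the site of grainyhead-like factors, and TGANTCA, the AP-1 site, on both strands, had 0 matches in the 6 windows and are in 1.83% and 6.34% of all. No motif overlapped another kind. A match is a run of letters and not a measured site, and the absence of letters from this window says nothing about a factor.

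The other genes of these junctions lay on both sides of their day 0 level. Of 54 other tight junction, adherens junction and polarity genes above the filter, 1 was at least 2-fold higher and 1 lower than on day 0 on day 3, where 4.31% and 2.15% of all 8801 genes were. On day 6, 4 were higher and 3 lower, where 5.74% and 8.08% of all genes were, and on day 9, 3 higher and 4 lower, where 5.57% and 6.25% were. Their median difference from day 0 was 0.03, 0.02 and 0.04 on days 3, 6 and 9, beside -0.05, -0.18 and -0.14 over all genes. This balance depended on the scaling, with 0 higher and 16 lower on day 9 after centring on the spike-ins and 8 higher and 2 lower after centring on housekeeping genes. Centring shifts every gene alike, on day 9 by -0.63 with the spike-ins and 0.21 with the housekeeping genes. The shares of all genes called after centring were not computed, so these counts cannot be read as particular to the junction genes. A gene is represented here by its brightest probe set, and these lists too were drawn up with earlier results known.

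Other membrane genes of the tight junction were mostly dim. Of 23 such genes with a probe set, 5 passed the filter and 0 were called on any day. The claudin gene Cldn12 read 7.99, 8.61, 8.41 and 8.81 on days 0, 3, 6 and 9, a difference of 0.82 on day 9. Crb3, which encodes the apical polarity protein Crumbs3, read 7.75, 8.29, 8.37 and 8.65, a difference of 0.91, with 0.55 to 0.85 in its other 3 probe sets. Marveld1 was at -0.76 on day 9, against 0.35 in another probe set, and the adhesion molecule gene Jam2 at 0.53. The claudin genes Cldn3, Cldn6, Cldn14 and Cldn19 read below 6 on all 4 arrays but above the brightest bacterial control, Cldn18 exceeded it on 2 arrays, and Cldn2, Cldn5, Cldn7, Cldn8, Cldn10, Cldn11, Cldn16 and Cldn22 exceeded it on none of the 4.

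Among 18 cytoplasmic tight junction genes above the filter, 1 was higher and 2 lower by 2-fold on day 9. Cgnl1, which encodes paracingulin, the relative of cingulin, read 5.24, 6.09, 6.31 and 6.54 on days 0, 3, 6 and 9, and was 1.30 higher on day 9, as Cgn was by 1.29. Cgnl1, the 1 gene counted as higher here, passed the filter only through the later days. Arhgef2, the gene of the RhoA exchange factor GEF-H1, which cingulin binds, read 9.10, 9.12, 8.20 and 7.99 and was lower by -1.11. Micall2, whose product links Rab13 to junction assembly, read 8.76, 8.57, 7.59 and 7.45 and was lower by -1.31. Ybx3, which encodes the ZO-1-binding factor ZONAB, was 0.75 higher.

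Among 17 cadherin, nectin, catenin and linker genes, 1 was higher and 2 lower by 2-fold on day 9. Nectin3 read 9.02, 7.27 and 7.23 on days 0, 3 and 6. Its differences from day 0 were -1.75, -1.79 and -1.03 on days 3, 6 and 9, and its day 9 value lay 0.76 above that of day 6. Ssx2ip, which encodes the afadin-binding protein ADIP, read 8.26, 7.71, 6.78 and 6.32, lower by -1.94 on day 9. Jup, the gene of plakoglobin, shared by adherens junctions and desmosomes, read 11.81, 12.09, 12.82 and 12.94, 1.13 higher on day 9, and Lmo7, whose product binds afadin and actinin, was 0.93 higher, with 1.17 and 1.04 in its other probe sets. The Lmo7 probe set at 1.04 read 5.03 on day 0 and passed the filter only through days 6 and 9. Other genes of this list whose products join cadherins or nectins to actin differed in direction on day 9, with Ctnna1 (alpha-catenin) at -0.41, Ctnnb1 (beta-catenin) at 0.27, Afdn (afadin, which ties nectins to actin) at 0.78 and Vcl (vinculin) at -0.65. The p120-catenin gene Ctnnd1 was at 0.28 and the P-cadherin gene Cdh3 at -0.62. These 6 genes were named after their values were seen.

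Among 14 polarity genes, 1 was higher and 0 lower by 2-fold on day 9. It was Tiam1, which encodes a Rac exchange factor that binds Par-3, and it read 9.07, 10.09, 10.46 and 10.23 on days 0, 3, 6 and 9, 1.16 higher on day 9, with 2.56 and 1.99 in its other 2 probe sets. Llgl2, the gene of a lethal giant larvae protein, was 0.98 higher on day 9, Pals1, whose product joins Crumbs3 to PATJ, 0.94 (1.74 in another probe set), and Pard6b, a Par-6 gene, 0.72.

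**Figure D3:**
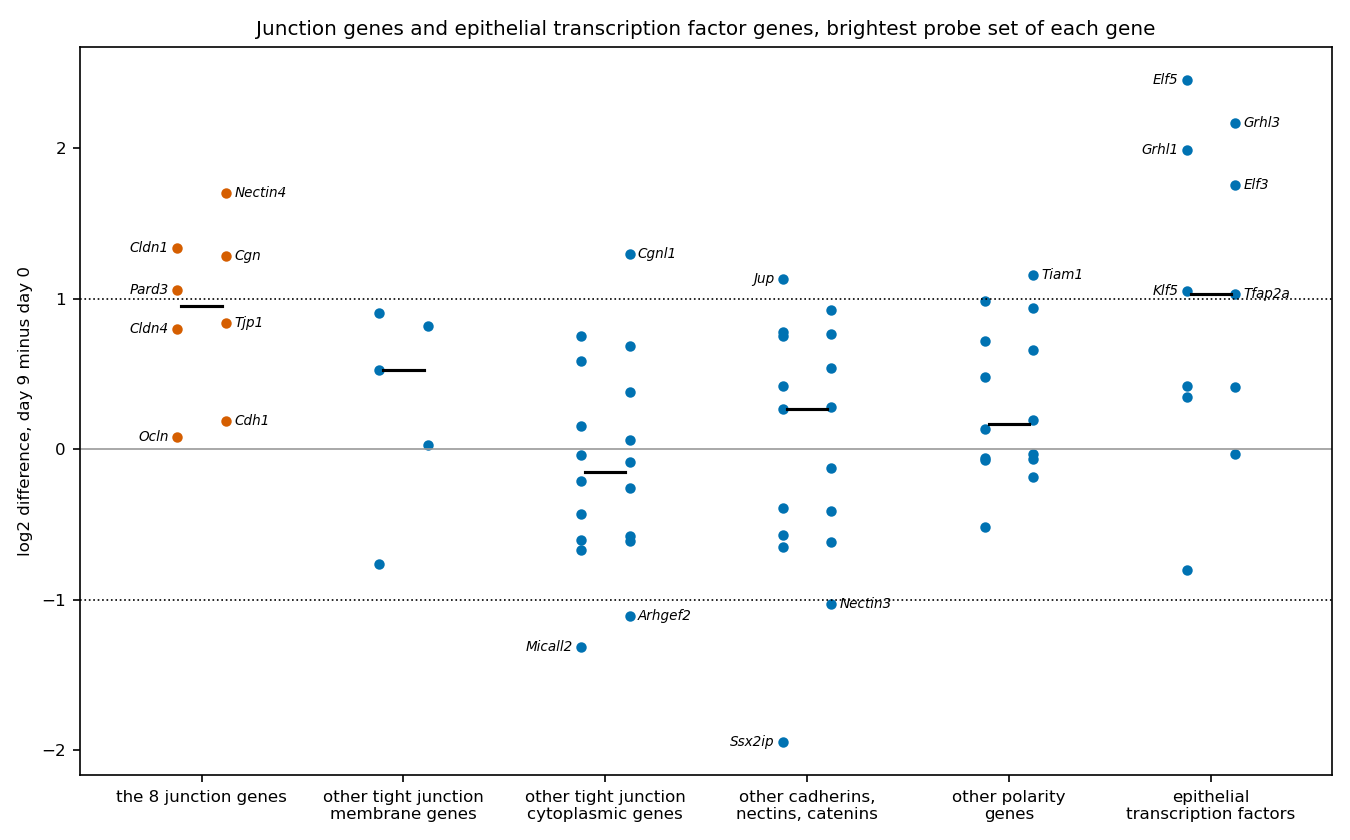
Log2 difference between day 9 and day 0 (y axis) of the brightest probe set of each gene above the filter, by list (x axis), with the 8 junction genes in orange; short black lines are list medians and dotted lines mark 2-fold. The 8 genes lie between 0.08 and 1.70, while the other junction lists hold genes on both sides of 0, and Elf5, Grhl3, Grhl1 and Elf3 lie between 1.76 and 2.45. The list shown as epithelial transcription factors also holds Esrp1, the gene of a splicing regulator.

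Genes of regulators known to act on junction genes were also read. Of 8 genes of E-cadherin repressors with a probe set, only Tcf4 passed the filter, at 7.16, 7.08, 7.10 and 7.13 on days 0, 3, 6 and 9, and at 0.55 on day 9 against day 0 in another probe set. Snai1 read 4.48 to 4.59, just over the brightest bacterial control on each array, and Zeb1 and Zeb2 did not exceed it on any. Twist1 read 5.11 on day 0 and did not exceed it on the later days, at least 1.46-fold lower on day 9 than on day 0. Another list held 11 genes of epithelial regulators above the filter, which are transcription factors except for the splicing regulator Esrp1. In it 4, 5 and 6 genes were at least 2-fold higher on days 3, 6 and 9, where 4.31%, 5.74% and 5.57% of all genes were. On these days 0 were at least 2-fold lower, where 2.15%, 8.08% and 6.25% of all were.

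Among them are the grainyhead-like genes, whose products bind junction gene promoters and enhancers in mice. Grhl1 read 9.01, 10.60, 11.33 and 10.99 on days 0, 3, 6 and 9 and was 1.99 higher on day 9, with 2.06 in its other probe set. Grhl3 read 9.02, 10.70, 11.05 and 11.20, 2.17 higher. Both were lowest on day 0. On day 9 the ETS factor genes Elf5 and Elf3 were 2.45 and 1.76 higher. Elf5 read 4.87, 6.99, 7.49 and 7.32 on days 0, 3, 6 and 9, so it passed the filter only through the later days. Klf5 was 1.05 higher on day 9 (2.85 and 0.03 in its other probe sets), and the AP-2 gene Tfap2a 1.03.

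**Figure D4:**
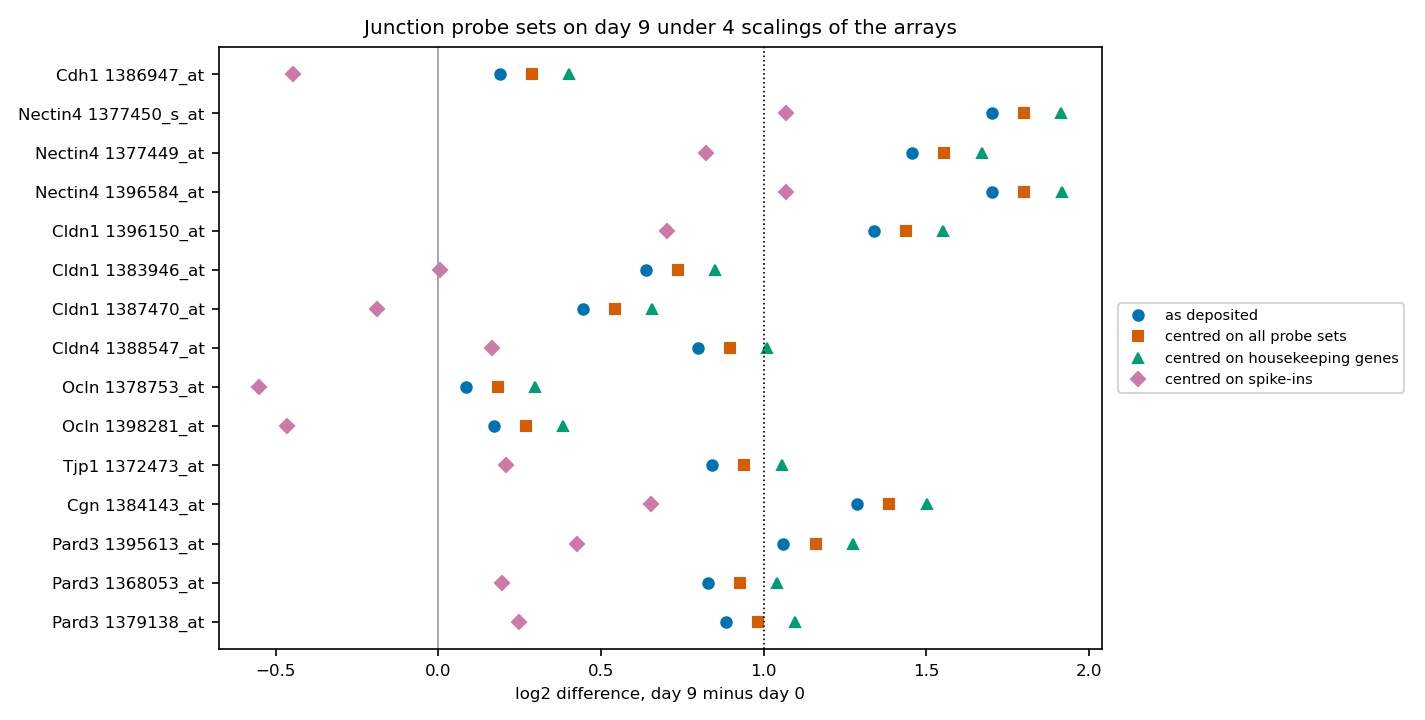
Log2 difference between day 9 and day 0 (x axis) of the 15 junction probe sets (rows) as deposited and with arrays centred on all probe sets, on 11 housekeeping genes or on 18 spike-in probe sets; lines mark 0 and 2-fold. Centring on the spike-ins moves all values left by 0.63, which leaves 2 Nectin4 probe sets past 2-fold and puts Cdh1, both Ocln probe sets and Cldn1 1387470_at below 0.

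The size of these differences depended on how the arrays were put on a common scale. The spike-ins read higher than on day 0 by a median of 0.14, 0.39 and 0.63 on days 3, 6 and 9. The 11 housekeeping genes were at a median of -0.07, -0.33 and -0.21. They were not steady themselves, as 2 of the 11 were at least 2-fold lower on day 6 and 2 on day 9, where 8.08% and 6.25% of all genes were. Centred on the spike-ins, the median of the 15 probe sets on day 9 was 0.21 and 2 were at least 2-fold higher, and centred on the housekeeping genes it was 1.06 with 10. Centring moves all probe sets alike, and the shares of all probe sets called under these scalings were not computed.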

How the data were processed

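RNA of ROE2 cells was measured on 4 arrays, 1 per day, with groups taken from the labels' time points. The values, as deposited by the authors, are log2 and were made with RMA, per the submitters' processing notes. RMA corrects background, makes the distributions of the arrays alike and combines the probes of each set, so a change in total RNA is not seen. Base 2 was read from their range, as the sources used here name neither software nor settings. No scanner files were used, so neither another background correction nor a scan batch could be tried.

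The table has 31099 probe sets, of which 57 are controls. The platform annotation gives 1 gene for 20832, several for 436 and none for 9831, and only those with 1 gene were used. Symbols were checked through Entrez identifiers, of which 20764 were found in RefSeq. The filter was log2 6 on at least 1 array, which 11504 probe sets and 8801 genes passed, and the size rule was 2-fold. The code that applies this rule was tested on simulated data with known changes, which gives no error rate for the 4 arrays. The number of arrays limits the precision. The members, lists and rules were chosen with earlier results of these data known. Genes named besides the members were the 4 with the largest day 9 difference in each junction or regulator list. Also named were all at least 2-fold apart on day 9, the 2 nearest in pattern to each member and a few context genes. Repressors and claudins that missed the filter were named after their values were seen. So were the catenin, Afdn, Vcl, Cdh3 and Cd68 values, the simple epithelial markers Krt20, Krt8 and Epcam, and Esrp1. The tools were matplotlib 3.10.9, pandas 2.3.3, numpy 2.4.6 and Python 3.11.15.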

Additional observations from a re-analysis of the deposited data

How the results depend on the processing

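No paired analysis was possible because each day has 1 array, and for the same reason no replicate could be left out. Leaving dim probe sets in or out, a further quantile normalization, centring on all probe sets and leaving out IDs marked for cross-hybridisation kept the counts of member probe sets at least 2-fold from day 0 within 1.5 times of 6, 9 and 6 on days 3, 6 and 9, and 0 were lower under any of the alternatives run. With no filter the member median on day 3 was 0.70, and with no filter or one at log2 5 the other junction genes higher on day 3 numbered 2. Centring on all probe sets gave 7 other junction genes higher on day 9. Centring on the housekeeping genes gave medians of 1.48 and 1.06 on days 6 and 9, 10 member probe sets higher on day 9, 1 higher on day 6 than on day 3, and among the other junction genes 11 higher on day 6 and 8 higher and 2 lower on day 9. Centring on the spike-ins gave medians of 0.77 and 0.21 on days 6 and 9, 2 member probe sets higher on day 9 than on day 0, and among the other junction genes 0, 1 and 0 higher on days 3, 6 and 9 and 10 and 16 lower on days 6 and 9. A threshold of 1.5-fold called 11 member probe sets on day 3 and 11 on day 9, 1 higher on day 6 than on day 3 and 3 lower on day 9 than on day 6, and 7, 15 and 15 other junction genes higher and 2, 10 and 10 lower on days 3, 6 and 9. A threshold of 3-fold called 0, 5 and 2 member probe sets on these days and 0 lower on day 9 than on day 6, with 0 other junction genes higher on any day and 1 lower on days 6 and 9 each. With the probe sets of each gene averaged, 2, 4 and 2 of the 8 genes were higher on days 3, 6 and 9 and 0 lower on day 9 than on day 6, and among the other junction genes 2 were lower on day 3, and 7 and 5 higher on days 6 and 9. Thresholds and gene means change what is counted by construction, and the cause of the other changes was not tested. The shares of all probe sets and genes called under these alternatives were not computed. The counts therefore cannot be read as particular to the junction genes.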
